A study of Homo sapiens with 6 samples.

Results

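The genes described here sense oxygen through the hypoxia-inducible factor (HIF) or answer to it outside glycolysis. They comprise 6 regulators and 4 targets, chosen by symbol, and make up 10 of the 60664 genes in the deposited count table. The regulators are the HIF alpha subunits HIF1A and EPAS1, the prolyl hydroxylases EGLN1, EGLN2 and EGLN3, and the von Hippel-Lindau gene VHL. The targets are CA9, NDRG1, ADM and BNIP3. All 10 passed the filter on low counts and were among the 15130 genes tested.

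The RNA came from SiHa PR, the parental (PR) form of an established human cervical carcinoma line, and was sequenced to ask which transcripts differ once P4HA3, a subunit of the collagen prolyl 4-hydroxylase, is overexpressed. There were 3 control samples, labelled SiHa PR, and 3 samples labelled SiHa PR P4HA3. No other allele or agent is named for either group, and no low-oxygen treatment is named. Whether the control cells carried an empty vector, and whether the overexpressing cells were a clone or a pool, is not given for these samples in the sources used here. Nothing in the labels says that the 3 samples of a group came from separate cultures, so p-values measure the spread between these samples, which may be technical.

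HIF is a transcription factor made of an oxygen-labile alpha subunit and a stable beta subunit. When oxygen is present, the EGLN enzymes hydroxylate prolines of the alpha subunit, using oxygen, iron and 2-oxoglutarate, and the VHL ubiquitin ligase then marks it for degradation. When oxygen falls, the alpha subunit accumulates and binds short motifs beside its target genes, among them those for pH control, vessel growth and mitophagy. This control acts on protein, which RNA counts do not measure.

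The samples differed as their labels require. P4HA3 had 3.53, 2.91 and 3.80 CPM (counts scaled to library size, normalized by TMM) in control replicates 1, 2 and 3 and 1930, 1990 and 1930 CPM with overexpression, a log2 fold change of 9.15 (standard error, SE, 0.101, adjusted p = 3.19e-12, edgeR quasi-likelihood test). Library totals ran from 21773488 to 24939948 counts, so 1 CPM rests on a little over 20 counts. The epithelial markers KRT8, KRT17 and KRT18 were abundant and KRT5 was near 0 (0.118 to 0.188 CPM). Also abundant was CDKN2A, a cell-cycle inhibitor gene kept on the epithelial list though not specific to epithelium. KRT19 averaged 0.84 CPM in control cells and 0.972 CPM with overexpression, EPCAM 5.76 and 5.48 CPM, and CDH1 16.4 and 9.65 CPM. The 8 genes of the epithelial list together took 7780 to 8950 CPM in control cells and 6570 to 7670 CPM with overexpression. Called lower were 4 of them, KRT17, KRT18, CDKN2A and CDH1 (CDH1 log2 fold change -0.77, adjusted p = 0.00114). Over all tested genes 11.4% were called lower, and KRT5 was not tested. With an offset for GC content and transcript length, KRT17 and CDKN2A were not called (adjusted p = 0.155 and 0.13). Of markers of other cell types, the 6 fibroblast markers were all at 1 CPM or more (184 to 193 CPM together in control cells and 144 to 185 CPM with overexpression, none called), 1 of 6 smooth muscle markers was (7.14 to 10.5 and 7.86 to 10.8 CPM together), 1 of 5 endothelial markers was and fell (2.78 to 3.75 and 1.42 to 1.77 CPM), and 1 of 5 leukocyte markers was and fell (91.2 to 110 and 35.1 to 50.8 CPM). The leukocyte and endothelial signals were almost wholly CD14 and PECAM1, with PTPRC and CDH5 at 0 to 2 counts. In such bulk samples, fewer cells of a type and less RNA per cell cannot be told apart.

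With P4HA3 overexpression, 4 of the 10 genes changed at an adjusted p under 0.05. ADM was higher, and NDRG1, CA9 and EGLN3 were lower. Over all tested genes the same call was made for 20.8%, in 9.36% as higher and in 11.4% as lower. The values of the 2 groups did not overlap for 5 of the 10 genes, the 4 called genes and EGLN2, against 40.1% of all tested genes. The median log2 fold change was -0.028 over the 10 genes and 0.006 over all tested genes. Neither HIF alpha subunit, nor VHL, nor BNIP3 was called, and the 4 changed genes comprise 3 of the 4 targets and 1 of the 6 regulators.

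**Figure D1:**
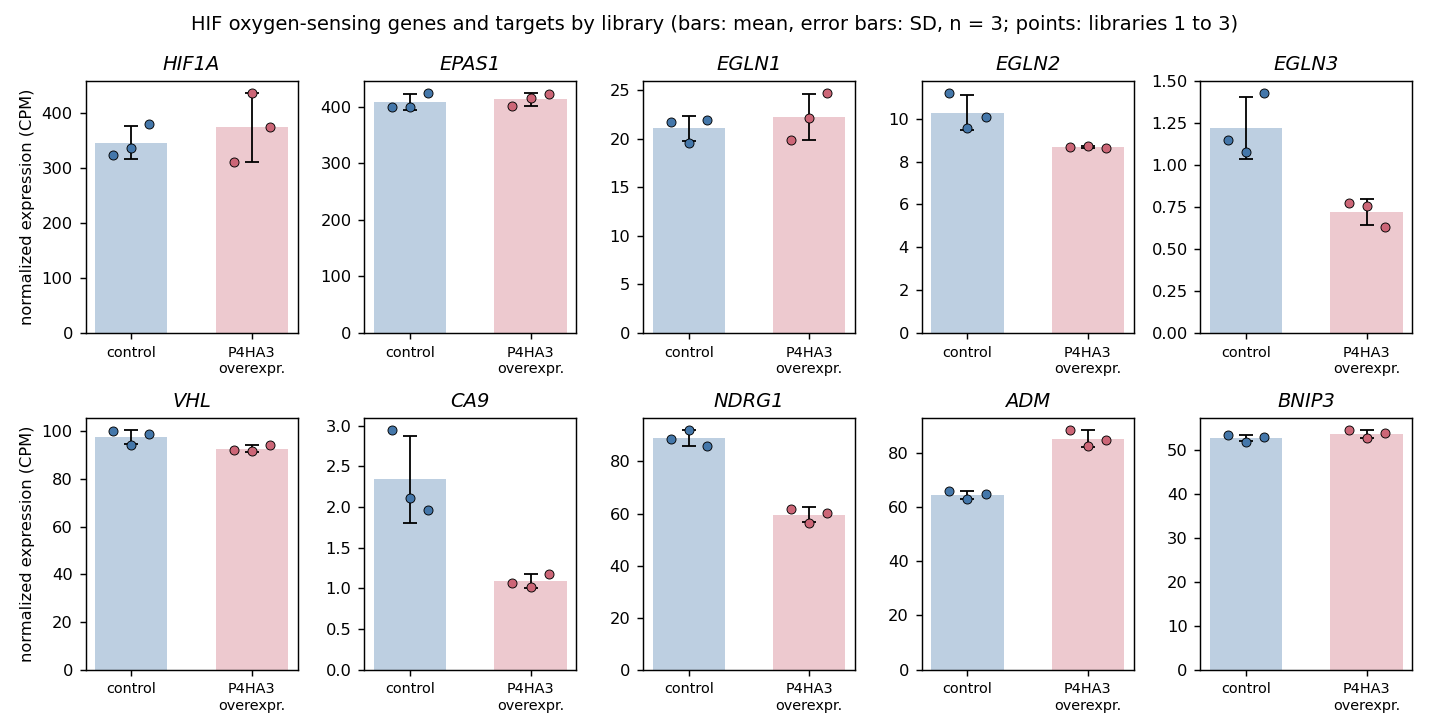
Normalized expression in CPM of the 10 genes, 1 panel a gene, with the y axis from 0. Bars are group means, error bars the SD (n = 3) and points the libraries 1 to 3 from left to right: NDRG1, CA9, EGLN3 and EGLN2 are lower and ADM is higher in every overexpressing library, and the groups of the other 5 genes overlap.

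HIF1A (ENSG00000100644, chr14:61695513-61748259 of GRCh38, plus strand) encodes the HIF-1 alpha subunit, found in nearly all cell types. It had 323, 336 and 380 CPM in control replicates 1, 2 and 3 and 311, 436 and 375 CPM in overexpression replicates 1, 2 and 3. The overexpressing samples thus held both the lowest and the highest of the 6 values, and the groups overlapped. The log2 fold change was 0.11 (SE 0.11, adjusted p = 0.486). Leaving out overexpression replicate 1 raised it to 0.23, which passed the test (adjusted p = 0.0423). That fit called 35.9% of all tested genes, against 20.8% with all samples. Leaving out overexpression replicate 2 turned the log2 fold change of HIF1A to -0.02 (adjusted p = 0.914). HIF1A has the lowest GC content of the 10 transcripts, 39.4%, and when an offset took out the trend of every sample on GC content and transcript length, its log2 fold change was -0.10 (adjusted p = 0.32).

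EPAS1 (ENSG00000116016, chr2:46293667-46386697, plus strand) encodes HIF-2 alpha, the subunit that drives erythropoietin and is best known from endothelium and kidney cancer. Its level was 399, 400 and 424 CPM in control cells and 401, 415 and 423 CPM with overexpression. All 6 values lay close together and the groups overlapped, with a log2 fold change of 0.02 (SE 0.0551, adjusted p = 0.82). Scaled to transcript length, the ratio of EPAS1 to HIF1A was 0.903 ± 0.0471 (SD, n = 3) in control cells and 0.86 ± 0.129 (SD, n = 3) with overexpression (exact permutation test, two-sided, p = 0.7, where 0.1 is the smallest p that 3 against 3 samples can give).

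Of the 3 prolyl hydroxylase genes, EGLN3 was called lower and EGLN1 and EGLN2 were not called. EGLN1 (ENSG00000135766, chr1:231363751-231422287, minus strand) encodes PHD2, the main oxygen sensor in most cells and itself a HIF target. Control cells had 21.7, 19.6 and 21.9 CPM and overexpressing cells 19.9, 22.1 and 24.7 CPM. These ranges overlapped, with a log2 fold change of 0.07 (SE 0.0953, adjusted p = 0.586), which turned to -0.01 without overexpression replicate 3 (adjusted p up to 0.976 over the samples left out in turn).

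EGLN2 (ENSG00000269858, chr19:40798996-40808434, plus strand) encodes PHD1, the hydroxylase of the family that is not induced by hypoxia. It had 11.2, 9.57 and 10.1 CPM in control cells and 8.67, 8.75 and 8.63 CPM with overexpression. Every overexpressing sample was below every control sample, but the log2 fold change of -0.25 (SE 0.0962) did not pass the test (adjusted p = 0.0893). The EGLN2 transcript is the richest in GC of the 10, at 63.8%, and with the GC and length offset its log2 fold change was 0.001 (adjusted p = 0.994).

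EGLN3 (ENSG00000129521, chr14:33924227-34462774, minus strand) encodes PHD3, the member most strongly induced by HIF in many cell types, which gives feedback on the alpha subunits. Only 28, 23 and 35 counts were read in control replicates 1, 2 and 3 and 18, 17 and 16 counts in overexpression replicates 1, 2 and 3. In normalized terms these were 1.15, 1.08 and 1.43 CPM and 0.772, 0.755 and 0.630 CPM. The groups did not overlap, and EGLN3 fell to 59.0% of the control mean, with a log2 fold change of -0.77 (SE 0.223, adjusted p = 0.0356). The call was narrow. It was kept without overexpression replicate 1 (adjusted p = 0.0334) and lost without any of the other 5 samples, with adjusted p = 0.0903, 0.0843 and 0.0941 without control replicates 1, 2 and 3 and 0.0637 and 0.125 without overexpression replicates 2 and 3, while the log2 fold change stayed between -0.85 and -0.64. With the GC and length offset it was -0.82 (adjusted p = 0.0268).

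Per transcript length, EGLN1 and EGLN2 took near-equal shares of the 3 hydroxylase transcripts in control cells. EGLN1 made up 47.7% ± 0.982 (SD, n = 3), EGLN2 47.9% ± 1.54 and EGLN3 4.41% ± 0.591 of their summed CPM per kb. With overexpression the shares were 53.7% ± 2.87 for EGLN1, 43.5% ± 2.44 for EGLN2 and 2.80% ± 0.436 for EGLN3. For each gene the groups did not overlap, and the exact permutation test (two-sided) gave p = 0.1, the smallest this design allows, so none of the 3 differences can pass a threshold of 0.05.

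These shares depend on how reads were assigned where genes overlap. Of the 2100 bases of the EGLN2 transcript, 88 lie outside another gene of the same strand, since the read-through gene RAB4B-EGLN2 covers the rest, and that gene had 0 counts in all 6 samples. Of 4335 bases of EGLN1, 1331 lie outside ENSG00000287856, which had 0 or 1 counts. Scaled to the bases outside such genes, EGLN2 made up 87.7% and EGLN1 11.9% in control cells, and 85.3% and 14.4% with overexpression, and scaled to merged exons EGLN1 made up 69.4% and 74.3%. The treatment of reads that match more than 1 gene is not given in the sources used here. ALDOA, a glycolytic gene named after its values were seen, shares 42.8% of its exon bases with ENSG00000285043 on the same strand and had 3.00 ± 0.515 CPM (SD, n = 3) in control cells. Levels of EGLN1 and EGLN2 relative to other genes are therefore uncertain, while their change between groups compares the same bases in every sample. The shares were not corrected for GC content, which is 46.4% for EGLN1 and 63.8% for EGLN2. With the GC and length offset the log2 fold change was 0.004 for EGLN1 and 0.001 for EGLN2 (edgeR adjusted p = 0.976 and 0.994). The difference in share between these genes was thus not seen with the offset.

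VHL (ENSG00000134086, chr3:10141778-10153667, plus strand) encodes the substrate-binding subunit of the ligase that recognises hydroxylated HIF alpha. Its level was 100, 94.2 and 98.8 CPM in control cells and 92.1, 91.7 and 94.4 CPM with overexpression. The highest overexpressing sample lay just above the lowest control sample, with a log2 fold change of -0.07 (SE 0.0536, adjusted p = 0.325). VHL was called lower only with the GC and length offset, at -0.15 (adjusted p = 0.0216), and the count of called genes among the 10 was then 5, with 1 higher and 4 lower, against 18.6% of all genes. Exons of ENSG00000287086, on the opposite strand, cover 23.5% of the exon bases of VHL and had 1 to 6 counts.

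**Figure D2:**
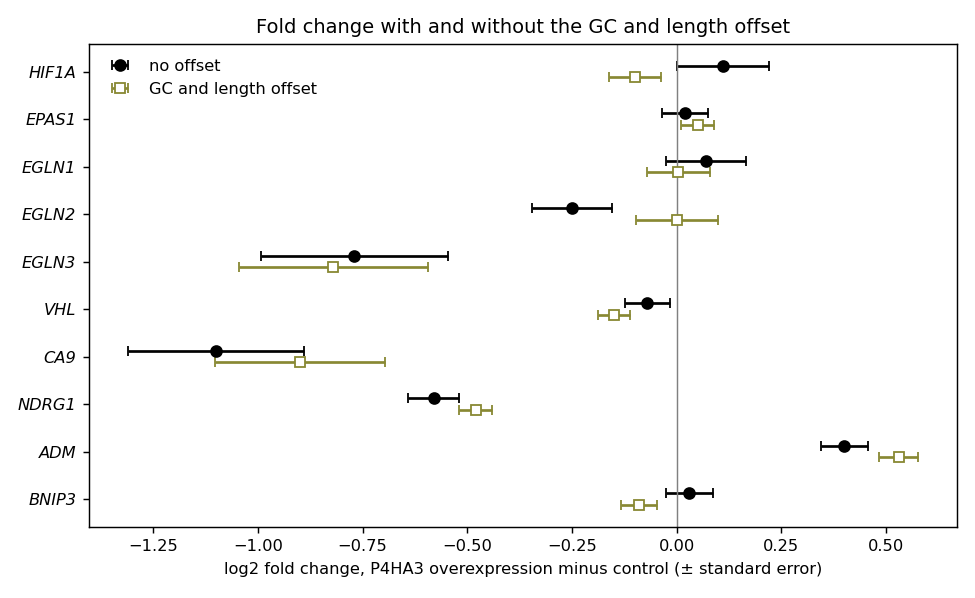
Log2 fold change of the 10 genes, overexpression minus control, with bars of 1 standard error. Filled circles are the fit without an offset and open squares the fit with the GC and length offset: NDRG1, CA9, EGLN3 and ADM keep their side of 0 in both, HIF1A and BNIP3 cross it, and EGLN2 moves from -0.25 to 0.001.

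Targets and EGLN3 were set beside the sequence upstream of their starts, as HIF binds a core of ACGTG or GCGTG. RefSeq windows of GRCh38.p14 were matched for 8 of the 10 genes, in 10 windows since HIF1A and EGLN2 have a pair each. NDRG1 and VHL had no entry. The 250 bases before the start are printed 5′ to 3′ on the strand of the gene for a target that fell (CA9, chr9:35673678-35673927), the target that rose (ADM, chr11:10304823-10305072), a target that was not called (BNIP3, chr10:131981924-131982173) and the hydroxylase that fell (EGLN3, chr14:33951075-33951324), with matches to either core on either strand in capitals, so that CACGT and CACGC also count. The gene spans given in the text cover all annotated transcripts, and the RefSeq start lies 511700 bases inside that of EGLN3 and 44 bases inside that of BNIP3.
CA9: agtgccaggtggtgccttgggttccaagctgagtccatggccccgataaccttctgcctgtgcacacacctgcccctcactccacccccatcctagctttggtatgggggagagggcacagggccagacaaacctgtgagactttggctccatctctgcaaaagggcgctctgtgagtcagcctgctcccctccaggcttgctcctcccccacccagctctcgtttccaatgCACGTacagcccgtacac
ADM: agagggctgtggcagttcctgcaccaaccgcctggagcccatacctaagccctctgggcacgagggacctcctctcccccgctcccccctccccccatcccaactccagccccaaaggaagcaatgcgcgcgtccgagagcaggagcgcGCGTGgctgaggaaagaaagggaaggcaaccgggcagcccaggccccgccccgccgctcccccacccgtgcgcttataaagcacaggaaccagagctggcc
BNIP3: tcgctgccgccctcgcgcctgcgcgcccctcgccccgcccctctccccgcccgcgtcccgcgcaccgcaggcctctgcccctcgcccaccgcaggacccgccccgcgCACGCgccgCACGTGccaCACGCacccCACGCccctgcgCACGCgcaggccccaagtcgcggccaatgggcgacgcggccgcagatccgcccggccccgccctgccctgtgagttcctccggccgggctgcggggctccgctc
EGLN3: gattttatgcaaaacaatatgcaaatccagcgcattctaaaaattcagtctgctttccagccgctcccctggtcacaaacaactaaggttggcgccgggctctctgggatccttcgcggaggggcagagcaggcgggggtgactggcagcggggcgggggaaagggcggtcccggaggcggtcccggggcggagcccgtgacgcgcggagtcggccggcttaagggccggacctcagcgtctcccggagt

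The CA9 window held 1 match, on the antisense strand 18 to 14 bases before the start, and the ADM window 1 match to GCGTG 101 to 97 bases before it. The BNIP3 window held 6, of which the matches to ACGTG on both strands overlap in CACGTG, 134 to 129 bases before the start, and the other 4 are CACGC. The EGLN3 window held none of these letters. Over the 10 windows of the genes described, 7 held either core (70%), and over all 35116 windows of the same length 43.2% did, 18.5% for ACGTG and 32.2% for GCGTG. These shares were not adjusted for the GC content of the windows, and HIF1A and EGLN2 enter with a pair of windows each. The windows of CA9, ADM, BNIP3 and EGLN3 had a GC content of 60.4%, 68%, 81.6% and 64%. A match is a description of the letters. BNIP3 held the most matches and was not called, and EGLN3 held none and fell. CA9 held 1 match and fell, and ADM held 1 match and rose. Sequence outside these windows was not searched, and whether matches go with the calls was not tested.

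CA9 (ENSG00000107159, chr9:35673928-35681159, plus strand) encodes carbonic anhydrase IX, a cell-surface enzyme that acidifies the medium around hypoxic tumour cells and a widely used hypoxia marker. It had 72, 45 and 48 counts in control replicates 1, 2 and 3 and 25, 23 and 30 counts in overexpression replicates 1, 2 and 3, or 2.95, 2.11 and 1.96 CPM and 1.07, 1.02 and 1.18 CPM. Control replicate 1 was the highest of the 6 and the groups did not overlap. CA9 fell to 46.6% of the control mean, the largest change among the 10 genes, with a log2 fold change of -1.10 (SE 0.209, adjusted p = 0.00804). The call held with each sample left out in turn (log2 fold change -1.22 to -0.89, adjusted p up to 0.0414) and with the GC and length offset (-0.90, adjusted p = 0.0113).

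Exons of ARHGEF39 on the opposite strand cover 35.7% of the exon bases of CA9. ARHGEF39 had 294, 259 and 266 counts in control cells and 299, 275 and 293 counts with overexpression, so it had more counts than CA9 in every sample and its groups overlapped. The libraries were made to keep the strand, but the strand setting of the counting is not given in the sources used here, and without strand the reads of these bases could not be told apart.

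NDRG1 (ENSG00000104419, chr8:133237175-133302022, minus strand) encodes a cytoplasmic stress protein induced by hypoxia and studied as a suppressor of metastasis. Control cells had 88.7, 92.2 and 86.1 CPM, and overexpressing cells 61.9, 56.5 and 60.4 CPM. The groups were far apart relative to their spread, and the level fell to 67.0% of the control mean. The log2 fold change of -0.58 (SE 0.0606) had the smallest adjusted p of the 10 genes, 0.000664. It was between -0.61 and -0.54 with each sample left out in turn (adjusted p up to 0.0135) and -0.48 with the GC and length offset (adjusted p = 2.88e-05). Over the 6 samples, the genes whose log2 CPM followed that of NDRG1 most closely were SREBF1 (Pearson r = 0.999), CEMIP (0.9989) and PAK1 (0.9983), among 9232 genes of at least 10 CPM on average, of which 655 had an r of 0.95 or more. These values rest on the same 6 libraries, which form 2 groups.

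ADM (ENSG00000148926, chr11:10305073-10307397, plus strand) encodes adrenomedullin, a secreted vasodilator peptide that also acts on lymphatic endothelium. Its level was 65.8, 63.0 and 64.9 CPM in control cells and 88.5, 82.4 and 84.8 CPM with overexpression. Each overexpressing sample was above each control sample, and the mean was 132% of the control mean, a log2 fold change of 0.40 (SE 0.0566, adjusted p = 0.00232). ADM was thus the gene among the 10 that was called higher, in the opposite direction to CA9 and NDRG1. The call held with each sample left out (log2 fold change 0.37 to 0.42, adjusted p up to 0.0262) and with the GC and length offset (0.53, adjusted p = 4.13e-05).

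BNIP3 (ENSG00000176171, chr10:131967684-131981967, minus strand) encodes a mitochondrial receptor for mitophagy. It had 53.5, 52.0 and 53.1 CPM in control cells and 54.7, 52.9 and 53.9 CPM with overexpression. The 6 values spanned less than 3 CPM and the groups overlapped, with a log2 fold change of 0.03 (SE 0.0568, adjusted p = 0.754). With the GC and length offset it was -0.09 (adjusted p = 0.188). BNIP3 has 44 pseudogene copies in the annotation, of which 1 had any count, at most 5 in a sample and 0.265% of the BNIP3 counts.

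Compared per transcript length, the genes described spanned more than 100-fold in control cells. HIF1A (87.8 ± 7.63 CPM per kb, SD, n = 3) and EPAS1 (79.1 ± 2.71) stood highest and overlapped each other. They were followed by ADM (43.3 ± 0.938), BNIP3 (34.3 ± 0.489), NDRG1 (29.4 ± 1.02) and VHL (22.1 ± 0.701), which did not overlap their neighbours. EGLN2 (4.90 ± 0.385) and EGLN1 (4.87 ± 0.292) overlapped, and CA9 (1.51 ± 0.347) and EGLN3 (0.450 ± 0.0685) were lowest. With overexpression the order changed in that NDRG1 (19.7 ± 0.933) lay below VHL (21.0 ± 0.329) and EGLN2 (4.13 ± 0.0309) below EGLN1 (5.13 ± 0.548). Both changes of order, and the order in control cells itself, depend on the length used. Scaled to merged exons EGLN1 exceeded EGLN2 in both groups, and scaled to bases outside same-strand genes EGLN2 exceeded EGLN1 in both. The merged exons of NDRG1 hold 12002 bases against 3025 in its canonical transcript, those of BNIP3 4050 against 1542, and those of VHL 5001 against 4414. Of the 2100 bases of the EGLN2 transcript, 88 lie outside same-strand genes, so its place in the order is uncertain. The genes at the low end, CA9 and EGLN3, were thus those with the largest fold changes, and they rest on the fewest counts.

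**Figure D3:**
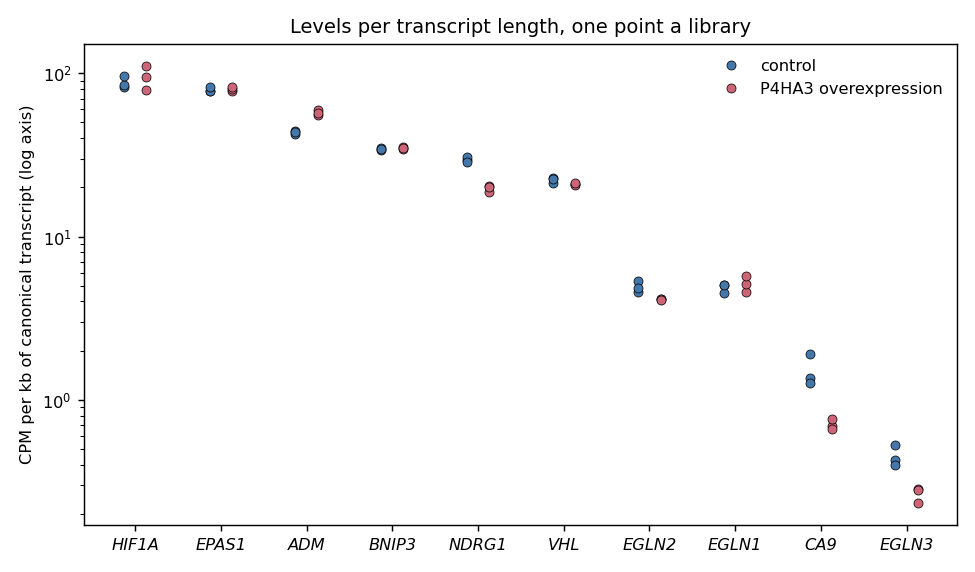
Level of each gene in CPM per kb of its canonical transcript, on a log axis, ordered by the control mean, with 1 point a library. On this length the HIF alpha subunits stand at the top, from 77.4 to 111 CPM per kb, and EGLN3 at the bottom, from 0.233 to 0.528 CPM per kb.

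The fold change of a gene followed its GC content across the tested genes (Spearman's rho = -0.581 over 15107 genes, which are not independent of each other). The median log2 fold change was 0.24 for the 2063 genes of 35 to 40% GC and -0.21 for the 1806 genes of 60 to 65% GC. The 6 genes that were not called lay between the 10th and the 90th percentile of genes of their own GC content. EGLN3, at 46.3% GC, lay below the 10th percentile of the 45 to 50% bin (-0.29), as CA9, at 59.9%, and NDRG1, at 54.9%, did of theirs (-0.51 and -0.40). ADM, at 55.4%, lay above the 90th percentile of its bin (0.14). Libraries of the same group also differed in this trend, where the rho of GC content with a library's distance from its group mean ran from -0.524 to 0.382 in control cells and from -0.48 to 0.451 with overexpression.

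**Figure D4:**
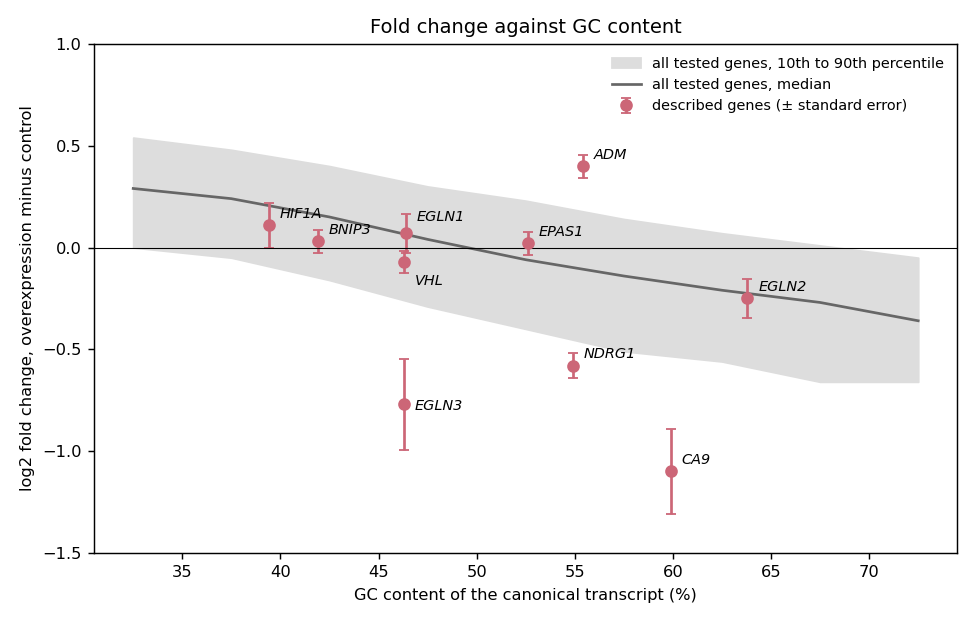
Log2 fold change, overexpression minus control, against the GC content of the canonical transcript in percent. The line and band are the median and the 10th to 90th percentile of all tested genes in bins of 5 percentage points, and points with bars of 1 standard error are the 10 genes: ADM lies above the band, EGLN3, NDRG1 and CA9 below it and the other 6 within it.

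The rest of the pathway was read from 3 lists. The machinery list holds 15 other genes that build, modify or degrade HIF, and 14 were tested. HIF3A was not, with 0 counts in every sample, which leaves room for an expected count of up to about 3. Among the 14 tested, 4 were called (28.6%, against 20.8% of all tested genes), 1 higher and 3 lower, with a median log2 fold change of -0.022. CREBBP, a coactivator that acetylates histones, rose (0.34, SE 0.0806, adjusted p = 0.0186). ARNT2, a beta subunit, fell (-0.39, SE 0.0995, adjusted p = 0.0226). ELOB, the elongin B subunit of the VHL ligase (-0.34, adjusted p = 0.0359), and P4HTM, a transmembrane prolyl hydroxylase (-0.23, adjusted p = 0.0441), were called lower, and neither was with the GC and length offset (adjusted p = 0.105 and 0.936). The calls of CREBBP and ELOB were lost without control replicate 1 (0.29 and -0.28), control replicate 2 (0.33 and -0.30) or overexpression replicate 3 (0.32 and -0.30), that of ARNT2 without control replicates 1 or 3 (-0.40 and -0.31) or overexpression replicate 3 (-0.41), and that of P4HTM without control replicates 1 or 2 (both -0.21) or overexpression replicates 2 or 3 (-0.19 and -0.22). ARNT, the main beta subunit, had a log2 fold change of -0.03 (adjusted p = 0.733) and HIF1AN, the asparagine hydroxylase FIH, -0.07 (adjusted p = 0.359), both named after their values were seen.

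Of 37 other targets outside glycolysis, 34 were tested, and FGF11, EPO and CXCR4 were not, with at most 11, 2 and 0 counts in a sample. Among those tested, 13 were called (38.2%, against 20.8% of all tested genes), 10 lower and 3 higher, and the median log2 fold change was -0.045. The largest falls among the called genes were SPAG4, which encodes a nuclear envelope protein (-0.93, SE 0.201, adjusted p = 0.013), ANGPTL4, a secreted inhibitor of lipoprotein lipase (-0.80, SE 0.154, adjusted p = 0.00864), DDIT4, an inhibitor of mTORC1 (-0.75, SE 0.0793, adjusted p = 0.000664), PPFIA4, a liprin (-0.65, SE 0.194, adjusted p = 0.0389), and ZNF395, a zinc finger protein (-0.49, SE 0.0945, adjusted p = 0.00864). SPAG4, ANGPTL4 and PPFIA4 rest on few counts, 36 to 124, 48 to 111 and 31 to 65 in a sample. VEGFA, the vascular growth factor, named after its values were seen, fell by 0.36 (SE 0.0531, adjusted p = 0.00277). STC2, a secreted glycoprotein (0.41, SE 0.086, adjusted p = 0.0123), TFRC, the transferrin receptor (0.28, adjusted p = 0.0268), and WSB1, a ubiquitin ligase subunit (0.20, adjusted p = 0.0483), were called higher. With the GC and length offset PPFIA4, TFRC and WSB1 were not called (adjusted p = 0.085, 0.192 and 0.723). The call of WSB1 was also lost with DESeq2 (adjusted p = 0.0601), limma-voom (0.0504), library sizes only (0.0509), no filter on low counts (0.0572) and the replicate block (0.062), and that of PPFIA4 with DESeq2 (0.111).

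Some of these calls were lost in fits with a sample left out, most of which also called fewer of all genes. SPAG4 was not called without control replicate 1 (-0.77), ANGPTL4 without control replicate 2 (-0.79), STC2 without control replicate 2 or overexpression replicate 3 (both 0.41), and PPFIA4 without control replicates 1, 2 or 3 (-0.75, -0.71 and -0.48) or overexpression replicate 3 (-0.56). TFRC was not called without control replicates 1 or 2 (0.28 and 0.24) or overexpression replicates 2 or 3 (0.19 and 0.32), and WSB1 was called only without overexpression replicate 1 among the 6 (0.17 to 0.23 without the others). DDIT4, ZNF395 and VEGFA were called with every sample left out in turn. Exons of FBXO16 on the same strand cover 35% of those of ZNF395, so its level is uncertain.

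The 20 glycolytic targets are given for comparison. SLC2A3, with at most 6 counts in a sample, was not tested. Of the other 19, 8 were lower (42.1%, against 11.4% of all tested genes) and 0 were higher. The log2 fold change was below 0 in all 19, with a median of -0.228, and in 7465 of all 15130 tested genes. With the GC and length offset, 9 were lower (47.4%, where 18.6% of all genes were called in either direction). In that fit 17 of 19 were below 0, against 7380 of all 15107 genes, and the median was -0.14. ALDOC, an aldolase (-0.70, adjusted p = 0.00217), ENO2, an enolase (-0.62, adjusted p = 0.00223), PFKFB4, which sets fructose 2,6-bisphosphate (-0.55, adjusted p = 0.00382), SLC16A3, the lactate exporter MCT4 (-0.47, adjusted p = 0.00411), and PFKL, a phosphofructokinase (-0.36, adjusted p = 0.0116), had the largest falls among the called genes. With the offset SLC16A3 fell by 0.22 and PFKL by 0.14, and PDK1 (-0.52, adjusted p = 0.00396) and PGK1 (-0.39, adjusted p = 0.0109), named after their values were seen, were lower than both. PFKL was not called without control replicates 1 or 2 (-0.36 and -0.33) or overexpression replicate 3 (-0.36), and the other 4 were called with every sample left out. Over the 3 lists, 25 of 67 tested genes were called (37.3%), 4 higher and 21 lower, 20.8% of all tested genes being called in the same fit. With control replicate 1, control replicate 2 or overexpression replicate 3 left out, the pathway count was 9 (13.4%), 9 (13.4%) and 11 (16.4%), beside 5.09%, 3.47% and 5.89% of all tested genes. Without overexpression replicate 1 it was 35 (52.2%), beside 35.9% of all tested genes.

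**Figure D5:**
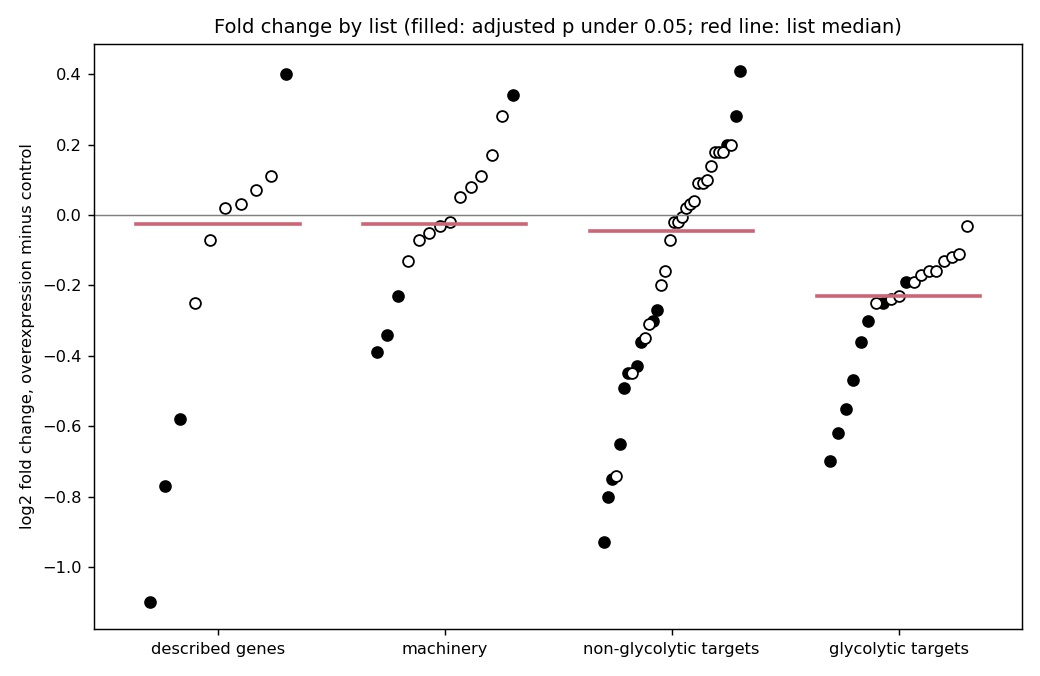
Log2 fold change, overexpression minus control, of the 10 genes described and of the tested genes of the 3 pathway lists, sorted within each list. Filled points have an adjusted p under 0.05 and the red line is the median of a list: the glycolytic points all lie below 0, while the other lists lie on both sides.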

How the data were processed

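RNA from 6 samples of SiHa cells was profiled, and the groups were taken from the sample titles. The growth protocol in the labels describes uterine smooth muscle, while the source name, the cell line field and the study give SiHa. The deposited values are raw counts per gene for 60664 Ensembl genes. According to the study's methods, the authors made strand-specific paired-end libraries from poly-A RNA, aligned them to GRCh38 with an Ensembl annotation by STAR and counted with HTSeq, while the submitters' processing notes name HISAT2. Tool versions, the strand setting of the counting and the treatment of reads with several matches are not given in the sources used here.

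The quasi-likelihood test of edgeR 4.0.16 was run in R 4.3.3 (filterByExpr with a minimum count of 10, TMM, glmQLFit and glmQLFTest, two-sided) over 15130 genes, with Benjamini-Hochberg adjustment over all of them and a threshold of 0.05. Standard errors are the absolute log2 fold change divided by the root of F. Symbols, positions, GC content and transcript lengths came from GENCODE release 44, which is not the authors' annotation release, with 60463 of 60664 identifiers matched. The TMM factors were 0.9795 to 1.018 and the biological coefficient of variation 7.66%. Samples within a group were further apart than counting alone gives (chi-square per degree of freedom 5.15 to 17.6), and none was a duplicate. For the GC and length offset, the distance of a library from the 6-library mean was fitted on GC content and log2 length (mgcv 1.9.3). Group differences that run along GC content or length are removed with it, of whatever origin. Other alternatives were DESeq2 1.42.0, limma-voom (limma 3.58.1), RLE or library-size scaling, other filters, a replicate block, a stricter threshold and leaving out each sample, and a further length for the shares was added after seeing the data.

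The members and lists were chosen with earlier results of these data known. Named were the 10 members, P4HA3, up to 5 called genes in each direction per list, the 3 genes closest to the member of smallest adjusted p, marker genes, and a few genes said in place to be named after their values were seen. Genes not tested and overlapping neighbours are also named.

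On simulated counts for 14985 genes with 200 changed, the same comparison recovered 85.6% of 2-fold and 64.6% of 1.5-fold changes, and 18 of 165 calls were false. These counts were drawn independently for each gene and without a GC trend. In the real data 20.8% of tested genes were called and fold change followed GC content (Spearman's rho = -0.581). The simulated rates therefore need not hold for the real fit.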

Additional observations from a re-analysis of the deposited data

How the results depend on the processing

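The count of changed genes among the 10 was 4 in 6 of 16 alternatives, 3 in 7 and 5 in 3. It was 3 with DESeq2, which gave EGLN3 no adjusted p, at an adjusted p under 0.01 and with 5 of the 6 samples left out in turn, and 5 with the GC and length offset, with or without the replicate block, and without overexpression replicate 1. ADM, NDRG1 and CA9 were called in each alternative run at 0.05. Of the other pathway genes, 25 were called, with 8 at an adjusted p under 0.01 and 9 to 35 with a sample left out. Over all tested genes the count was 3147, with 728 at an adjusted p under 0.01, 4485 with no filter on low counts and 534 to 5530 with a sample left out, and the share called higher went from 45.0% to between 29.3% and 30.5% without control replicate 1, control replicate 2 or overexpression replicate 3. The GC and length offset shared 1699 of its 2803 calls with the fit without it and turned the log2 fold change of HIF1A to -0.10, of BNIP3 to -0.09 and of EGLN2 to 0.001, and HIF1A and BNIP3 had the same values with the replicate block added. With a sample left out, HIF1A ran from -0.02 to 0.23 and EGLN1 from -0.01 to 0.15. The cause of these moves was not tested. The difference in share was 2.51 percentage points for EGLN1 and -0.109 for EGLN3 when scaled to bases outside genes of the same strand, and the difference in the ratio of EPAS1 to HIF1A ran from -0.106 to 0.0225 with a sample left out, turning positive without overexpression replicate 2.

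Whether the replicate numbers pair the samples is not known. Deviations of same-numbered samples correlated at 0.25, -0.0486 and 0.0297, and those of samples with different numbers at -0.302 to 0.268. The libraries also differed in their GC trend, so these values cannot decide it. With the replicate number as a block, 4 of the 10 genes (1 higher and 3 lower), 29 other pathway genes and 4313 of all tested genes were called. For single named genes, 229 of 251 alternatives with all samples kept direction and side of the threshold, 15 lost the call, 2 gained it and 5 turned, and of 168 with a sample left out these were 127, 38, 1 and 2. Depth limits EGLN3, CA9 and PPFIA4, with 16 to 35, 23 to 72 and 31 to 65 counts, and genes below about 1 CPM.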
